A study of Mus musculus with 6 samples.

Results

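The genes described here encode receptors for cytokines, tumour necrosis factor (TNF) ligands and microbial products, with the kinases and adaptors that carry their signals. They were chosen by gene symbol from the deposited table: interleukin, interferon, colony-stimulating factor, TNF and Toll-like receptor symbols, gp130 (Il6st), Lifr, Osmr, Myd88, the Janus kinases, Traf1 to Traf7 and Ripk1 to Ripk4, without Il1r1 and Tnfrsf19. The table holds 53 such genes among its 10989. All 6 libraries come from the brain of mice with the genotype Tie2-cre+; NuTRAP+, and every library title carries WT. NuTRAP is a reporter that tags ribosomes with EGFP in cells where Cre has acted. The 3 Input libraries hold RNA of the brain cell suspension, and the 3 Positive libraries hold RNA of cells sorted from it as EGFP positive, CD31 positive and CD11b negative. Both fractions carry the replicate numbers 1222, 1223 and 1227. The age of the mice is not given in the sources used here. Tie2 regulatory sequence is also active in part of the blood lineage, so Cre activity alone does not define an endothelial cell.

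Cytokine receptors of class I and class II have no enzyme of their own and signal through bound Janus kinases, which phosphorylate STAT transcription factors. TNF receptors recruit TRAF adaptors and the kinase Ripk1, and Toll-like and IL-1 receptors signal through Myd88 and Traf6, and these routes lead to NF-kB. In brain, endothelial cells meet cytokines and interferons from the blood, while microglia carry most of the Toll-like receptors. A cytokine receptor works as a complex, so the chains of one complex are set side by side below.

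Summed estimated counts ranged from 4772866 to 52283556 per library, and both 1223 libraries were the shallowest. The 6 endothelial markers, Pecam1, Cdh5, Cldn5, Flt1, Kdr and Tie1, summed to 1838 to 2501 CPM (counts scaled to library size) in Input and 14640.2 to 16013 CPM in Positive. All 6 were higher in Positive. The 10 microglial markers were all lower, and their sum went from 11317, 6206 and 10910.5 CPM in Input 1222, 1223 and 1227 to 2670.2, 1558 and 1377 CPM in Positive. Of 8 perivascular macrophage markers 7 were higher, unevenly: the sum was 628, 601 and 564 CPM in Input and 3446, 1369.6 and 659.7 CPM in Positive. All 6 astrocyte and all 5 oligodendrocyte markers were lower, while 6 of 7 pericyte markers were higher. Of 9 blood leukocyte markers 4 were tested, of which 1 was higher and 3 lower. Cd3e, Cd79a, S100a8, Lcn2 and Plac8 were not among the genes of the deposited table. The Input suspension also holds endothelial cells. In bulk RNA, fewer cells of a type and less RNA per cell cannot be told apart.

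Of the 53 genes 22 (41.5%) rose in Positive, 15 (28.3%) fell and 16 did not pass the test, an adjusted p below 0.05 in edgeR's quasi-likelihood test. Over all 10989 genes, 26.1% were called higher and 29.4% lower. The 37 calls were 69.8% of the 53 genes, against 55.5% of all genes. The median log2 fold change was 0.23 for the 53 genes and 0.03 for all genes. The type I interferon receptor, the oncostatin M receptor, the common gamma chain and 3 of 4 Janus kinases were among the genes that rose. Most Toll-like receptors, Il10ra, Csf3r and Il1rap were among those that fell. Input and Positive libraries did not overlap for 39 of the 53 genes (73.6%), against 64.4% of all genes. All 22 rises and 15 falls were among the 39, so each necessarily had the same direction in all 3 replicate numbers. A lack of overlap named below for a called gene thus adds nothing to its call. The deposited table keeps a gene if all libraries of 1 fraction have at least 50 counts. Of the 53, 41 met this in both fractions (18 higher, 11 lower), 6 only in Positive (4 higher) and 6 only in Input (4 lower). This cut favours a call towards the fraction that kept the gene but does not bar the other direction. Csf2rb, kept through Positive alone, had a log2 fold change of -1.25. Without both libraries of 1227, 14 genes rose and 9 fell. Without TMM scaling, Lifr (log2 0.56), Myd88 (0.31), Ripk2 (0.53), Tnfrsf1a (0.23) and Tyk2 (0.71) lost their calls as higher, and Csf2ra (-0.90) and Traf3 (-0.65) were called lower.

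**Figure D1:**
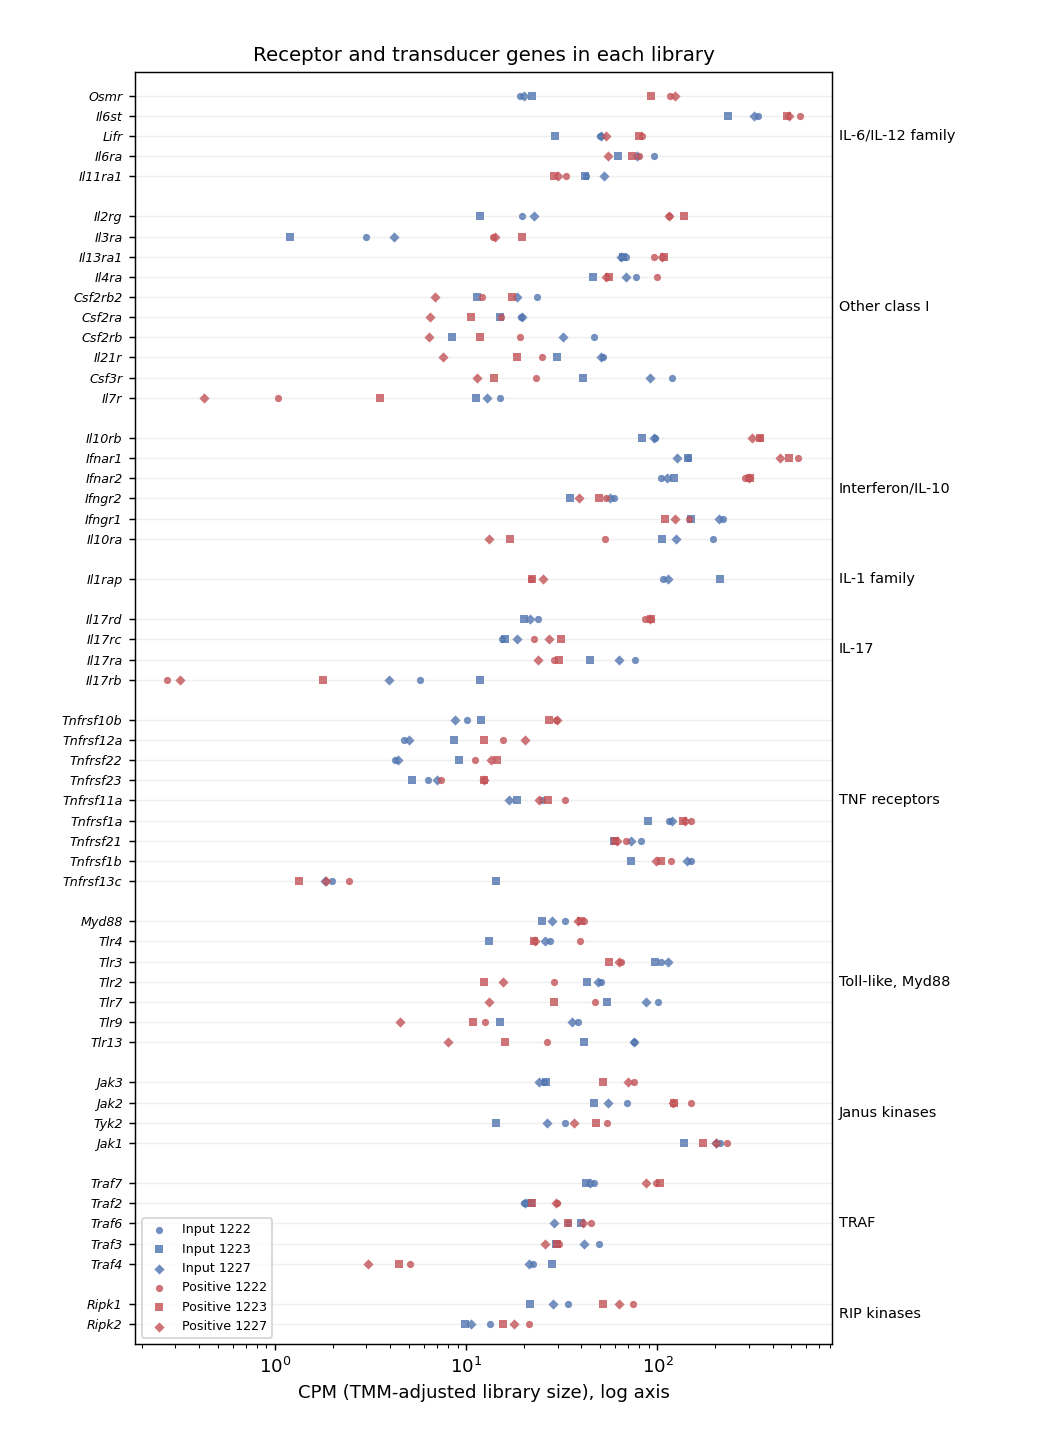
CPM of each of the 53 genes in every library on a log axis, by role (blue Input, red Positive; circles 1222, squares 1223, diamonds 1227). The red points of Osmr, Il2rg, Il10rb, Ifnar1 and Ifnar2 lie to the right of all blue ones, and those of Il10ra, Csf3r, Il7r and Traf4 to the left.

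**Figure D2:**
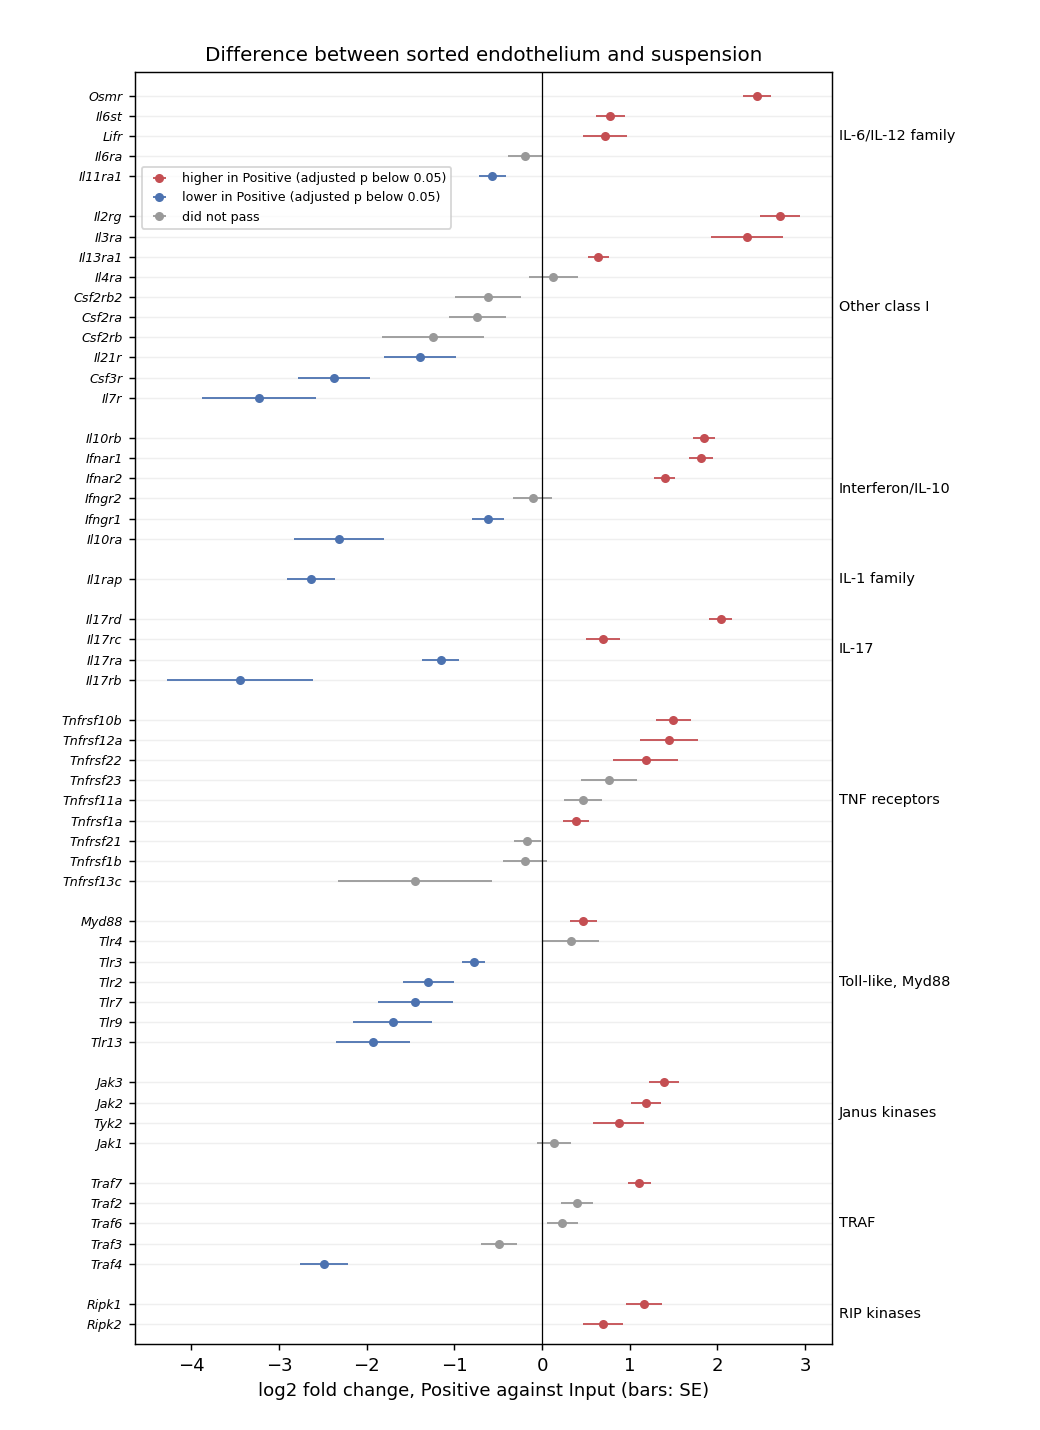
Fitted log2 fold change of Positive against Input with its SE for the 53 genes, by role; colours give the call at an adjusted p below 0.05. Within nearly every receptor family some genes lie on each side of 0, from -3.45 (Il17rb) to 2.71 (Il2rg).

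Values given in sets of 3 below follow the order 1222, 1223, 1227. The receptors of the IL-6 family share gp130, encoded by Il6st, which pairs with a ligand-specific chain. Of 5 genes, 3 rose and 1 fell (median log2 fold change 0.72). Il6st (chromosome 13, 112464070 to 112506860, mm10) stood at 336, 233 and 319.9 CPM in Input and 559, 478 and 488 CPM in Positive, a log2 fold change of 0.78 ± 0.17 (SE; adjusted p = 0.00401). All Positive values lay above all Input values. Osmr, the chain for oncostatin M (chromosome 15, 6813577 to 6874313), went from 19.2, 22.2 and 20.00 to 117, 92.7 and 124 CPM, a log2 fold change of 2.45 ± 0.16 (adjusted p = 5.77e-06). Its lowest Positive library was above its highest Input library by more than the whole Input level. Lifr, the receptor for leukaemia inhibitory factor, had 50.1, 29.2 and 50.9 CPM in Input and 82.98, 80.5 and 53.7 CPM in Positive. Its log2 fold change was 0.72 ± 0.25 (adjusted p = 0.0372), and Input and Positive 1227 were nearly equal. The call on Lifr was lost without Input 1223 (log2 0.52), Positive 1222 (0.60) or Positive 1223 (0.64), and with the replicate number as a block (adjusted p = 0.0519).

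The ligand-binding chains of 2 related receptors behaved otherwise. Il6ra, which binds IL-6, had 95.8, 62.1 and 78.3 CPM in Input and 79.6, 73.4 and 55.2 CPM in Positive, with overlapping groups and a log2 fold change of -0.19 ± 0.20 (adjusted p = 0.45). Il11ra1, which binds IL-11, fell from 45.6 ± 5.95 to 30.8 ± 2.31 CPM (SD, n = 3; log2 -0.57 ± 0.16, adjusted p = 0.0138), a call lost without Input 1227 (log2 -0.45). Of the chains that join gp130, Osmr and Lifr were thus called higher, Il11ra1 lower, and Il6ra was not called. Cntfr, the ciliary neurotrophic factor chain that joins gp130 and Lifr but lies outside the symbol rule, fell from 252 ± 55.98 to 16.7 ± 3.53 CPM (log2 -3.89 ± 0.23, adjusted p = 3.96e-06). The differences between these chains were not tested.

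Among the other class I receptors 3 of 10 genes rose, 3 fell and 4 did not pass (median log2 fold change -0.68). Il2rg encodes the common gamma chain shared by the receptors for IL-2, IL-4, IL-7, IL-9, IL-15 and IL-21 (chromosome X, 101264387 to 101268206). It stood at 19.6, 11.8 and 22.6 CPM in Input and 114, 137 and 115 CPM in Positive, the widest rise of the 53 genes, with a log2 fold change of 2.71 ± 0.23 (adjusted p = 2.07e-05). Its Input 1223 value was the lowest and its Positive 1223 value the highest. Exons of Il2rg share 728 bases on the same strand with Gm20489, and the gene is also expressed by blood leukocytes. Of their markers, given above, Cd3e and Cd79a could not be tested. The private chains that pair with it went the other way or did not pass. Il7r, the IL-7 receptor chain of lymphoid cells, fell from 15.03, 11.2 and 12.9 to 1.04, 3.55 and 0.424 CPM (log2 -3.23 ± 0.65, adjusted p = 0.00257). Its Positive counts were 23, 16 and 8, it met the deposited minimum in Input alone, and without Positive 1223 its log2 fold change was -4.01. Il21r fell from 44.1 ± 12.5 to 16.96 ± 8.81 CPM (log2 -1.39 ± 0.41, adjusted p = 0.019) and lost its call without Input 1222 (log2 -1.26) or Input 1227 (-1.28). Il4ra, which pairs with either Il2rg or Il13ra1, had 77.2, 46.1 and 68.3 CPM in Input and 99.9, 55.9 and 54.1 CPM in Positive, with groups that overlap (log2 0.13 ± 0.28, adjusted p = 0.72). Without Positive 1222 its log2 fold change was -0.23.

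Il13ra1, the chain that forms the type II IL-4 and IL-13 receptor, rose from 68.1, 65.9 and 64.4 to 96.1, 108 and 106 CPM (log2 0.64 ± 0.12, adjusted p = 0.00196). The spread was small in both fractions and the groups did not overlap. Jak3, the kinase bound by the common gamma chain, rose as well and is described with the kinases.

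The receptors of the colony-stimulating factors, typical of myeloid cells, were lower or not called, with 1 exception. Csf3r, the receptor for granulocyte colony-stimulating factor, fell from 119, 40.6 and 91.7 to 23.02, 13.97 and 11.4 CPM (log2 -2.37 ± 0.41, adjusted p = 0.00125). Csf2ra had a log2 fold change of -0.74 ± 0.32 (adjusted p = 0.0828), the common beta chain Csf2rb -1.25 ± 0.58 (adjusted p = 0.0977) and its close copy Csf2rb2 -0.61 ± 0.38 (adjusted p = 0.199). Csf2rb and Csf2rb2 lie 20.4 kb apart on chromosome 15, and reads shared between them could be split by the counting. Without Positive 1222, Csf2ra (log2 -1.12) and Csf2rb (-1.76) were called lower, as was Csf2rb without Input 1223 (-1.65). DESeq2, an alternative test, also called Csf2rb lower (log2 -1.23, adjusted p = 0.0474). Csf2rb met the deposited minimum in Positive alone and Csf2ra in Input alone. The exception was Il3ra, the IL-3 binding chain, which rose from 2.98, 1.20 and 4.19 to 13.8, 19.5 and 14.1 CPM (log2 2.34 ± 0.41, adjusted p = 0.00127). It met the deposited minimum in Positive alone.

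The class II receptors for interferons and IL-10 gave 3 rises and 2 falls among 6 genes (median log2 fold change 0.65). On mouse chromosome 16, 4 of these genes follow each other in the order Ifnar2, Il10rb, Ifnar1, Ifngr2, with gaps of 0.6, 59.4 and 36.6 kb. The first 3 rose and the fourth was not called. Ifnar2 (chromosome 16, 91372783 to 91405587), one chain of the type I interferon receptor, went from 105, 121 and 113 CPM in Input to 285, 305 and 301 CPM in Positive (log2 1.40 ± 0.12, adjusted p = 2.07e-05). Ifnar1 (chromosome 16, 91485215 to 91510522), its partner chain, went from 144, 145 and 127 to 541, 486 and 438 CPM (log2 1.81 ± 0.14, adjusted p = 1.09e-05). Both chains of the receptor were thus higher in every Positive library than in any Input library. Il10rb, the second chain shared by the receptors for IL-10, IL-22 and type III interferons (chromosome 16, 91406235 to 91425834), went from 96.5, 83.3 and 95.9 to 342, 345 and 311 CPM (log2 1.85 ± 0.13, adjusted p = 6.72e-06). The annotation holds a read-through gene, Gm21970, whose exons share 315 bases with Ifnar2 and 569 with Il10rb on the same strand, and reads there cannot be assigned to one gene alone.

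The chains of the interferon gamma receptor did not follow. Ifngr2 (chromosome 16, 91547094 to 91564007) had 50.2 ± 13.5 CPM in Input and 47.2 ± 7.70 CPM in Positive (log2 -0.11 ± 0.22, adjusted p = 0.711), and the groups overlapped. Ifngr1, its ligand-binding partner on chromosome 10, fell from 219.8, 150.2 and 211 to 147, 109.5 and 123 CPM (log2 -0.61 ± 0.18, adjusted p = 0.019). This call was lost without Input 1222 (log2 -0.51), Input 1227 (-0.55), Positive 1223 (-0.52) or Positive 1227 (-0.59). Il10ra, the ligand-binding chain that pairs with Il10rb, fell from 142 ± 47.5 to 27.8 ± 22.2 CPM (log2 -2.32 ± 0.51, adjusted p = 0.00459). Its Positive values were uneven, at 53.4, 16.9 and 13.2 CPM, and without Positive 1222 the log2 fold change was -3.26. Il10rb and Il10ra, the 2 chains of the IL-10 receptor, were therefore called in opposite directions.

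**Figure D3:**
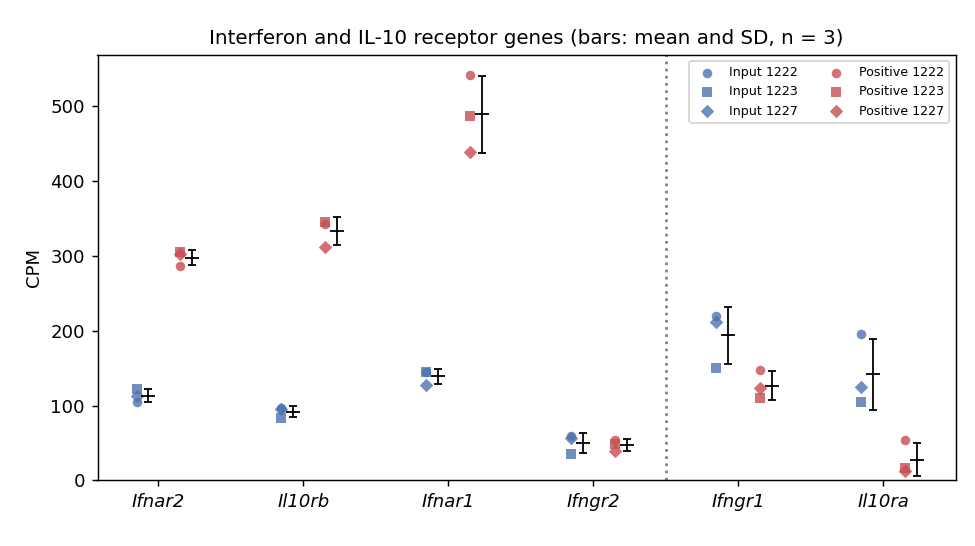
CPM of 6 class II receptor genes per library, with mean and SD (n = 3) beside the points; the 4 genes left of the dotted line are neighbours on chromosome 16, in genome order. Ifnar2, Il10rb and Ifnar1 are separated between fractions, Ifngr2 is not, and Ifngr1 and Il10ra are lower in Positive.

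Upstream sequence is shown for the chromosome 16 neighbours, because 2 of them rose and 1 was not called, and for Myd88, whose window holds 2 overlapping motifs. Each is the 250 bases before the RefSeq start (GRCm38.p6, gene strand, 5′ to 3′); Il10rb is not shown. Capitals mark matches, on either strand, to the ETS motif CCGGAAGT, the STAT motif TTCNNNGAA, the interferon response element core (GAAA, 2 bases, GAAA) and the NF-kB motif (GGGA, 1 base, TTTCC).
Ifnar2, chr16:91372533-91372782, plus strand: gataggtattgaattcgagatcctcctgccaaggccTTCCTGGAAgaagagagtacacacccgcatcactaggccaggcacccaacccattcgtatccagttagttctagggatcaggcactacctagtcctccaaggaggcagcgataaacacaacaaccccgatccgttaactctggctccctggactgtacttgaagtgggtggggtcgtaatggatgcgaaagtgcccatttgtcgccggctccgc
Ifnar1, chr16:91484965-91485214, plus strand: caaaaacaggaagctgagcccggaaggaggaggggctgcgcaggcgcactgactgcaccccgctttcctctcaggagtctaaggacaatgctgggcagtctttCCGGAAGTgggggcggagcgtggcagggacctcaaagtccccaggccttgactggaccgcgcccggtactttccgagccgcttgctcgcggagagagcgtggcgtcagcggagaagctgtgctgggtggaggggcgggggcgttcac
Ifngr2, chr16:91546809-91547058, plus strand: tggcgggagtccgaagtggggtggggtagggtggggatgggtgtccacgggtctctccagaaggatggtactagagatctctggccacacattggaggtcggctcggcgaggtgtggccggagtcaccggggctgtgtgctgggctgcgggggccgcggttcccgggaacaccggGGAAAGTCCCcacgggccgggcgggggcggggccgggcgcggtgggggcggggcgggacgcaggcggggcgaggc
Myd88, chr9:119340019-119340268, minus strand: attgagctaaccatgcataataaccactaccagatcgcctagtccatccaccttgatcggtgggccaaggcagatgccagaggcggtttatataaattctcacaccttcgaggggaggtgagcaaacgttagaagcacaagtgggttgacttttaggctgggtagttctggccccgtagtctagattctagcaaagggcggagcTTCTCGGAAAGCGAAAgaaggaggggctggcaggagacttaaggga

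The Ifnar1 window holds the ETS motif, that of Ifnar2 the STAT motif and that of Ifngr2 the NF-kB motif. In the Myd88 window the STAT motif and the interferon response element core overlap. Of the 53 genes 44 have an entry in the table. The STAT motif was found in 7 of the 44 genes, against 8.1% of the 27025 genes in the table, non-coding genes included. By call it was in 4 of 18 genes that rose, 1 of 12 that fell and 2 of 14 others. The ETS motif was in 2 of the 44 genes (Ifnar1 and Traf7; 3.2% of all genes), the interferon response element core in 2 (Myd88 and Tnfrsf1b; 3.5%) and the NF-kB motif in 2 (Ifngr2 and Tlr3; 0.4%). A GC box, GGGCGG, was in 31 of the 44 genes (70.5%) against 35.4% of all genes, so that the windows of the 44 also differed from the whole table in this GC-rich motif, by call in 13 of 18, 7 of 12 and 11 of 14. By single windows of this length, 2.9%, 7.0%, 3.0% and 0.4% of all windows held the ETS, STAT, interferon response element and NF-kB motif. A match describes letters only.

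Of the IL-1 family receptors 1 gene was described. Il1rap, the accessory protein that the IL-1 and IL-33 receptors need to signal (chromosome 16, 26581705 to 26725147), fell from 107, 211 and 113 to 21.8, 21.95 and 25.1 CPM (log2 -2.63 ± 0.27, adjusted p = 6.24e-05). The fall was from a wide Input range to a narrow Positive one, and the groups were far apart.

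All 4 IL-17 receptor genes were called, 2 in each direction. Il17rd, a chain also known for restraining fibroblast growth factor signalling (chromosome 14, 27039001 to 27107286), rose from 23.7, 19.98 and 21.6 to 85.9, 92.2 and 91.9 CPM (log2 2.04 ± 0.14, adjusted p = 6.31e-06). Il17rc, a chain of the IL-17A receptor, rose from 15.4, 15.98 and 18.4 to 22.7, 31.3 and 27.2 CPM (log2 0.69 ± 0.19, adjusted p = 0.0151), a call lost without Input 1222 (log2 0.64). Il17ra, the chain common to several IL-17 receptors and partner of Il17rc, fell from 76.2, 44.6 and 62.6 to 28.7, 30.6 and 23.7 CPM (log2 -1.16 ± 0.21, adjusted p = 0.00182). None of these groups overlapped. Il17rb, the IL-25 receptor chain, fell from 5.76, 11.8 and 3.94 to 0.271, 1.77 and 0.318 CPM (log2 -3.45 ± 0.83, adjusted p = 0.00545). It rests on few reads, 6, 8 and 6 counts in Positive, and it met the deposited minimum in Input alone. Without Positive 1223 the log2 fold change was -4.22. Exons of Il17rb share 141 bases with Actr8 on the opposite strand.

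Of 9 TNF receptor genes 4 rose, 5 did not pass and 0 fell (median log2 fold change 0.47). Tnfrsf1a, the main death domain receptor for TNF, had 115, 89.7 and 119.8 CPM in Input and 151, 135 and 139 CPM in Positive. Its rise was small (log2 0.39 ± 0.14, adjusted p = 0.0473) and was lost when any 1 of the 6 libraries was left out (log2 0.28 without Input 1223 to 0.47 without Input 1227). Tnfrsf1b, the second TNF receptor, had 149, 73.1 and 142 CPM in Input and 118, 104 and 98.7 CPM in Positive, overlapping (log2 -0.19 ± 0.25, adjusted p = 0.539). Input 1223 was low in Tnfrsf1b, and without it the gene was called lower (log2 -0.45). Tnfrsf21, the death receptor DR6, had 81.7, 59.1 and 72.3 CPM in Input and 68.8, 59.6 and 61.5 CPM in Positive (log2 -0.17 ± 0.15, adjusted p = 0.381). Tnfrsf11a, known as RANK, had 24.9, 18.4 and 16.7 CPM in Input and 32.7, 26.6 and 23.9 CPM in Positive (log2 0.47 ± 0.22, adjusted p = 0.0998); it was called higher with the replicate number as a block (adjusted p = 0.0303) and without Input 1222 (log2 0.67).

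Wider rises were found in receptors for TRAIL and TWEAK. Tnfrsf10b, the mouse TRAIL death receptor (chromosome 14, 69767472 to 69784411), rose from 10.3 ± 1.61 to 28.8 ± 1.52 CPM (log2 1.50 ± 0.20, adjusted p = 0.000235). Tnfrsf12a, the TWEAK receptor Fn14, rose from 6.11 ± 2.15 to 16.1 ± 3.93 CPM (log2 1.45 ± 0.33, adjusted p = 0.00518). Tnfrsf22 and Tnfrsf23, mouse decoy receptors for TRAIL, lie 16.2 kb apart on chromosome 7, and their reads could be split between them. Tnfrsf22 rose (log2 1.18 ± 0.37, adjusted p = 0.0227) and lost its call without Input 1222 (log2 0.98), Input 1227 (0.99) or Positive 1227 (1.15). Tnfrsf23 did not pass (log2 0.76 ± 0.32, adjusted p = 0.071) but was called higher without Positive 1222 (log2 0.98). Tnfrsf12a, Tnfrsf22 and Tnfrsf23 met the deposited minimum in Positive alone. Tnfrsf13c, the BAFF receptor of B cells, had 1.99, 14.4 and 1.81 CPM in Input, so that Input 1223 stood apart, and 2.44, 1.33 and 1.85 CPM in Positive (log2 -1.45 ± 0.88, adjusted p = 0.182; 0.040 without Input 1223).

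Toll-like receptors were mostly lower: 5 of 6 fell, and Tlr4 did not pass (median log2 fold change of the 6 and Myd88, -1.30). Tlr3, the endosomal sensor of double-stranded RNA (chromosome 8, 45395665 to 45410539), fell from 104, 96.7 and 114 to 64.4, 56.1 and 63.2 CPM (log2 -0.78 ± 0.13, adjusted p = 0.00105). Its values were even within each fraction. Tlr7, a sensor of single-stranded RNA, fell from 101, 54.3 and 86.7 to 47.2, 28.8 and 13.1 CPM (log2 -1.44 ± 0.43, adjusted p = 0.0188), and lost its call without Input 1222 (log2 -1.25) or Positive 1223 (-1.42). Tlr13, a mouse sensor of bacterial ribosomal RNA, fell from 75.3, 41.2 and 75.5 to 26.4, 15.96 and 7.995 CPM (log2 -1.93 ± 0.42, adjusted p = 0.00428). For Tlr7 and Tlr13 Positive 1222 was the highest and Positive 1227 the lowest sorted library. Tlr2, which detects bacterial lipoproteins, fell from 47.5 ± 4.03 to 18.9 ± 8.67 CPM (log2 -1.30 ± 0.29, adjusted p = 0.00493), and Tlr9, the DNA sensor, from 29.7 ± 12.8 to 9.30 ± 4.24 CPM (log2 -1.70 ± 0.45, adjusted p = 0.0116). Tlr9 met the deposited minimum in Input alone, with Positive counts of 277, 49 and 85, the 49 in the shallowest library.

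Tlr4, the receptor for lipopolysaccharide, differed from the other Toll-like receptors in not being called lower: it had 22.2 ± 7.83 CPM in Input and 28.3 ± 9.49 CPM in Positive (log2 0.33 ± 0.32, adjusted p = 0.405), with overlapping groups. Myd88, the adaptor of all mouse Toll-like receptors here except Tlr3, had 32.8, 24.8 and 28.02 CPM in Input and 41.2, 39.7 and 38.6 CPM in Positive. It rose (log2 0.47 ± 0.16, adjusted p = 0.0312), but the call was lost without Input 1223 (log2 0.39), Input 1227 (0.46), Positive 1222 (0.45), Positive 1223 (0.47) or Positive 1227 (0.50). Exons of Myd88 share 290 bases with Acaa1a on the opposite strand.

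Several of the 15 genes that fell were uneven among the sorted libraries. In 7 of the 15 the CPM of Positive 1222 was at least 2 times that of Positive 1227. These were Il10ra, Tlr7, Il21r, Tlr13, Tlr9, Il7r and Csf3r. The same held for 2 of the 16 genes not called (Csf2rb and Csf2ra) and 0 of the 22 that rose. This ratio was 4.05 for Il10ra and 3.60 for Tlr7, with a median of 1.85 over the 15 and 1.07 over the 22. Neither this share nor the lowest differences given below were determined over all genes, so neither is shown to be particular to these receptors. Positive minus Input within a replicate number was -1.09, -0.90 and -2.68 log2 for Tlr7, -1.50, -1.34 and -3.16 for Tlr13 and -1.05, -0.68 and -2.67 for Il21r. The summed microglial markers gave -2.08, -1.99 and -2.99 and the summed perivascular macrophage markers 2.46, 1.19 and 0.23 on the same scale. The astrocyte sum gave -3.02, -3.26 and -3.33 and the neuron sum -4.24, -4.10 and -4.38. The oligodendrocyte sum gave -4.41, -5.44 and -3.84. For these 3 genes and for each of these sums but the oligodendrocyte one, 1227 gave the lowest difference. It did so too for 11 of the 15 genes that fell, 8 of the 22 that rose and 9 of the 16 others. The blood leukocyte sum (-1.45, -0.87 and -1.68) was also lowest in 1227. The endothelial (2.97, 2.68 and 2.99), pericyte (1.25, 0.65 and 1.32) and smooth muscle sums (0.016, -1.64 and -0.47) were lowest in 1223. The fibroblast sum (-1.99, -1.41 and -1.50) was lowest in 1222. The differences for Tlr3 (-0.69, -0.78 and -0.85), Ifngr1 (-0.58, -0.45 and -0.77) and Traf4 (-2.04, -2.54 and -2.60) spanned less between numbers. The part of microglial or macrophage RNA in the falls was not tested.

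**Figure D4:**
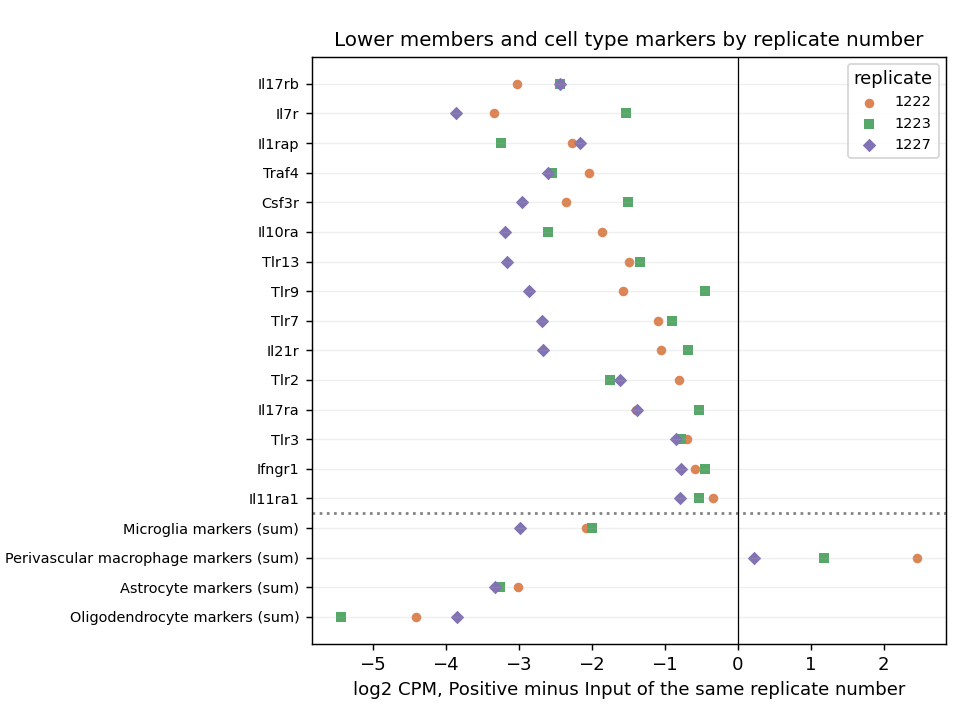
Log2 CPM in Positive minus Input of the same replicate number for the 15 genes that fell (0.5 CPM added before the log), and for summed markers of 4 cell types. 11 of the 15 genes, Tlr13, Tlr9, Tlr7 and Il21r among them, lie lowest in 1227, as do the microglial, perivascular macrophage and astrocyte sums but not the oligodendrocyte sum, while Tlr3, Ifngr1 and Il11ra1 stay within a narrow range.

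Of the 4 Janus kinases 3 rose (median log2 fold change 1.03). Jak3, whose best known partner is the common gamma chain, rose from 25.6, 25.97 and 24.1 to 75.02, 52.1 and 70.4 CPM (log2 1.39 ± 0.17, adjusted p = 0.000156). Jak3 shares 404 exon bases on the same strand with Insl3. Jak2, which serves the common beta chain and interferon gamma receptors, rose from 69.02, 46.7 and 55.3 to 149, 122 and 119.9 CPM (log2 1.19 ± 0.18, adjusted p = 0.000493). Neither gene's groups overlapped. Tyk2, bound by Ifnar1 and Il10rb, rose from 32.98, 14.4 and 26.5 to 54.6, 47.4 and 36.5 CPM (log2 0.87 ± 0.29, adjusted p = 0.0303) and lost its call without Input 1227 (log2 0.92), Positive 1222 (0.73) or Positive 1223 (0.86). Jak1, which serves gp130, gamma chain and interferon receptors alike, had 212, 137 and 203 CPM in Input and 232, 174 and 201 CPM in Positive (log2 0.14 ± 0.19, adjusted p = 0.569). The fractions overlapped for Jak1, and its sign turned without Input 1223 (log2 -0.032).

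Of 5 TRAF adaptors 1 rose, 1 fell and 3 did not pass. Traf7, the family member with WD40 repeats in place of the TRAF domain, rose from 46.3, 42.4 and 44.5 to 97.8, 104 and 87.6 CPM (log2 1.11 ± 0.13, adjusted p = 0.000123). Traf4 (chromosome 11, 78158423 to 78165550) fell from 22.4, 28.2 and 21.2 to 5.06, 4.43 and 3.07 CPM (log2 -2.49 ± 0.28, adjusted p = 8.74e-05) and met the deposited minimum in Input alone. Traf7 was even within each fraction. Traf4 had Positive counts of 112, 20 and 58, and its CPM in Positive 1222 was 1.65 times that in Positive 1227. Traf2, the adaptor of TNF receptors, had 20.1, 21.8 and 20.4 CPM in Input and 29.8, 22.2 and 29.6 CPM in Positive (log2 0.40 ± 0.18, adjusted p = 0.0904) and was called higher without Positive 1223 (log2 0.52). Traf6, the adaptor of Toll-like and IL-1 receptors, had 34.2, 39.8 and 28.9 CPM in Input and 44.8, 33.9 and 40.6 CPM in Positive (log2 0.23 ± 0.18, adjusted p = 0.305). Traf3, which restrains non-canonical NF-kB signalling, had 49.4, 29.6 and 41.1 CPM in Input and 30.6, 29.7 and 25.8 CPM in Positive (log2 -0.49 ± 0.20, adjusted p = 0.071) and was called lower without Input 1223 (log2 -0.66). Reads of Traf7 can include 267 exon bases shared with Rab26.

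Both RIP kinase genes rose. Ripk1, which decides between survival and death signals of TNF receptors (chromosome 13, 34002874 to 34035170; 511 exon bases shared with Gm17084 on the same strand), went from 34.00, 21.6 and 28.4 to 74.8, 52.1 and 63.2 CPM (log2 1.17 ± 0.21, adjusted p = 0.00142). Ripk2, the kinase of NOD receptors, went from 13.3, 9.79 and 10.6 to 21.4, 15.5 and 17.8 CPM (log2 0.69 ± 0.23, adjusted p = 0.0308). The fractions did not overlap in either gene. The Ripk2 call was lost without Input 1223 (log2 0.62), Input 1227 (0.64), Positive 1222 (0.57) or Positive 1227 (0.71), and the gene met the deposited minimum in Positive alone.

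To compare levels between genes, mean CPM was divided by the kilobases of exon that GENCODE M21 gives each gene. On this scale the highest genes in Positive were Ifnar2 at 89.3 ± 3.15, Il10rb at 87.4 ± 4.98 and Ifnar1 at 82.2 ± 8.69 CPM per kb (SD, n = 3), which did not differ beyond their spread. Next came Tnfrsf1a (54.7 ± 3.07), Il2rg (51.2 ± 5.56), Il6st (45.8 ± 3.99) and Ifngr1 (44.4 ± 6.66), neighbours again within their spread. Tnfrsf1b (28.01 ± 2.56) and Jak1 (27.99 ± 4.04) followed. In Input the order began with Ifngr1 (68.00 ± 13.3), Tnfrsf1a (41.7 ± 6.21), Il10ra (40.5 ± 13.6), Ifnar2 (33.9 ± 2.53) and Tnfrsf1b (31.8 ± 11.01), of which the last 4 lay within their spread. Il2rg moved from rank 27 in Input to rank 5 in Positive, and Il10ra from rank 3 to rank 24. Il3ra, Il4ra, Il6ra, Il1rap, Tyk2, Tlr3 and Tnfrsf23 have an annotated antisense gene over part of their exons, and reads of the 2 strands cannot be told apart where the counting ignored strand. The lowest levels in Positive were those of Il17rb (0.212) and Il7r (0.358 CPM per kb).

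The ligands, adaptors and downstream genes of these receptors were taken from a list of 114 genes, of which 81 were tested. Of these, 42 rose, 15 fell and 24 did not pass, with a median log2 fold change of 0.53, against 26.1% called higher and 29.4% lower among all genes. Of the NF-kB genes fixed to be named, Nfkb1 rose from 80.98 ± 18.8 to 169 ± 23.7 CPM (log2 1.05 ± 0.19), Rela by log2 0.93 ± 0.13 and the inhibitor Nfkbia by 1.16 ± 0.29. Adjusted p values were 0.00161, 0.000353 and 0.00957. Nfkb2 (log2 1.29 ± 0.14) and Relb (1.09 ± 0.27) also rose. Further genes of the same family as Nfkbia, Nfkbib (-0.14 ± 0.24, adjusted p = 0.632), Nfkbie (0.42 ± 0.34, adjusted p = 0.332) and Nfkbiz (-0.75 ± 0.83, adjusted p = 0.47), did not pass. For the kinase upstream of Nfkbia, the subunit gene Ikbkg did not pass (0.29 ± 0.14, adjusted p = 0.115). Its further subunit genes Ikbkb (log2 1.17 ± 0.23, adjusted p = 0.00245) and Chuk (0.66 ± 0.18, adjusted p = 0.0135) rose. Among the STAT factors, Stat3 rose by log2 0.80 ± 0.17 (adjusted p = 0.00426) and Stat6 by 0.92 ± 0.15 (adjusted p = 0.00106). Stat5b rose by 0.68 ± 0.20 (adjusted p = 0.018), while Stat5a did not pass (-0.14 ± 0.24, adjusted p = 0.638).

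The widest rises in this list were Tnfsf10, the gene of TRAIL (log2 2.67 ± 0.22), the co-stimulatory receptor Cd40 (2.56 ± 0.27), the necroptosis effector Mlkl (2.42 ± 0.41) and the cytokine signalling inhibitor Socs2 (2.27 ± 0.17). TRAIL and its death receptor Tnfrsf10b were thus both higher in Positive: Tnfsf10 went from 32.2, 37.96 and 21.8 to 220.1, 180.3 and 176 CPM. Falls were widest for the IL-1 family ligand genes Il1a (log2 -4.09 ± 0.67) and Il33 (-4.02 ± 0.39), the ciliary neurotrophic factor receptor Cntfr (-3.89 ± 0.23) and the ligand gene Il1b (-2.89 ± 0.65). Il1rap, the accessory chain for IL-1 and IL-33, was lower as well. All 8 passed the test, with adjusted p between 3.96e-06 (Cntfr) and 0.00506 (Il1b).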

How the data were processed

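The deposited table holds estimated counts (expected counts with decimals) and normalised log2 values for 6 libraries. Per the file headers, the authors kept genes with raw values of at least 50 in all libraries of at least 1 fraction. Per the submitters' processing notes the build was mm10 and the tools include DESeq; no source used here gives the aligner, the counter or its strand setting. The deposited log2 values entered 1 alternative only. After rounding, all 10989 genes entered edgeR's quasi-likelihood test (edgeR 4.0.16, in R 4.3.3) with TMM factors and fraction as the only term. A filterByExpr minimum of 10 removed 0 genes. Benjamini-Hochberg adjusted p below 0.05 was called. CPM use the TMM-adjusted library size. Log2 fold changes are edgeR's, with prior count 2, and the SE follows from the test statistic. Limma 3.58.1 and DESeq2 1.42.0 served alternatives. The fit was tested on simulated data.

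Values are printed for each library for up to 4 genes a role with the highest mean CPM and the 4 widest rises and 4 widest falls; every tested member is named. A gene of the pathway list that the rule would name is not reported here. Further genes whose sorted values were spelled out, the motifs searched and the exon overlaps were chosen after values were seen. The members and lists were chosen with earlier results of these data known. All 53 genes matched GENCODE M21 (mm10) by Ensembl identifier; promoters are from RefSeq, GRCm38.p6. The series text calls the replicates biological, but no label ties a number to an animal, so the p-values cover only the spread of these libraries, which may be technical. Deviations of Input and Positive libraries with the same number correlated at 0.47 (1222), 0.25 (1223) and 0.30 (1227), so the numbers were taken to pair the libraries; the block was fitted as an alternative.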

Additional observations from a re-analysis of the deposited data

How the results depend on the processing

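Of 37 called receptor and transducer genes, 22 kept their call and direction in every alternative that could be fitted (DESeq2, no TMM, RLE factors, no filter, a minimum of 50 counts in all 6 libraries, the replicate block, each library or number left out, and limma on the deposited log2 values). Among these 22, Il3ra, Il7r, Il17rb and Traf4 could not be tested with the 50-count minimum. With the replicate block 22 rose and 15 fell, as without it, though Lifr was lost and Tnfrsf11a gained; no other call of the 53 changed. With at least 50 counts in all libraries, 41 of the 53 could be tested, of which 14 rose and 12 fell. Of the 22 rises and 15 falls, 18 and 11 met this minimum. Of the listed pathway genes 64 could be tested, of which 32 rose and 9 fell. Leaving out libraries gave 14 to 20 rises and 9 to 18 falls, and 29 to 40 rises and 11 to 19 falls in the pathway list. The counts of 14 and 9 came without both libraries of 1227. Without TMM, 17 rose and 17 fell (5 rises lost, 2 falls gained), and the median of all genes moved by -0.155 log2. Only genes that were not called turned sign: Ifngr2 without Input 1222 (0.028), Positive 1227 (0.023) or both of 1227 (0.12) and by limma (0.008); Il4ra without TMM (-0.035), with the 50-count minimum (-0.012) and without Input 1223 (-0.049), Positive 1222 (-0.23) or both of 1222 (-0.076). Jak1 turned without TMM (-0.023), with the 50-count minimum (-0.002) and without Input 1223 (-0.032), and Tnfrsf13c without Input 1223 (0.040) or both of 1223 (0.17). Over all libraries left out, these log2 values ran from -0.33 to 0.12 (Ifngr2), -0.23 to 0.33 (Il4ra), -0.032 to 0.25 (Jak1) and -2.17 to 0.17 (Tnfrsf13c). Without both of 1227, Il13ra1, Tlr2, Tlr9 and Tnfrsf12a also lost their calls. Limma ended the calls of Ifngr1, Il11ra1 and Tnfrsf1a, and the 50-count minimum those of Lifr, Myd88, Tnfrsf1a and Tyk2. Calls were also gained: Tnfrsf23 as higher by DESeq2 and limma, Csf2rb as lower by DESeq2 and Traf3 as lower with the 50-count minimum. The cause was not tested. Counts were lowest, at 6 in at least 1 library, for Il17rb and Tnfrsf13c in Positive and Il3ra in Input.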

Other observations

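Several receptors of the same families carry symbols outside the set described above. They were picked out of the pathway list after their values were seen. Fas, the death receptor for Fas ligand, rose from 7.49 ± 1.40 to 31.6 ± 5.98 CPM (SD, n = 3; log2 2.07 ± 0.24, adjusted p = 0.000121), and Ltbr, the lymphotoxin beta receptor, from 54.6 ± 9.54 to 95.4 ± 2.11 CPM (log2 0.79 ± 0.15, adjusted p = 0.00241). Relt, an orphan TNF receptor, fell from 16.6 ± 2.95 to 2.67 ± 0.890 CPM (log2 -2.60 ± 0.35, adjusted p = 0.00028). Among class I receptors, Lepr, the leptin receptor, rose by log2 1.76 ± 0.15 (adjusted p = 2.4e-05) and Crlf2, a chain of the receptor for thymic stromal lymphopoietin, by 1.32 ± 0.17 (adjusted p = 0.000196). Crlf2 pairs with Il7r, which fell. Csf1r, the receptor for macrophage colony-stimulating factor, fell (log2 -1.82 ± 0.40, adjusted p = 0.00484), and Ghr, the growth hormone receptor, did not pass (0.16 ± 0.26, adjusted p = 0.628). The death receptor adaptors and effectors Fadd (log2 0.91 ± 0.19), Casp8 (1.19 ± 0.17) and Cflar (0.998 ± 0.19) rose, while Tradd (0.30 ± 0.24, adjusted p = 0.311) did not pass. Among the co-receptors, chaperones and adaptors of the Toll-like receptors, Cd180 (log2 -2.12 ± 0.31), Sarm1 (-2.02 ± 0.40) and Unc93b1 (-1.18 ± 0.26) fell, and Tirap (1.19 ± 0.23), Irak1 (0.95 ± 0.15), Irak3 (1.78 ± 0.26), Irak4 (0.70 ± 0.17) and Tollip (0.53 ± 0.12) rose. Ticam1 (-0.04 ± 0.27, adjusted p = 0.917), Irak2 (0.23 ± 0.22, adjusted p = 0.39) and Cd14 (-0.82 ± 0.64, adjusted p = 0.306) did not pass, and the Positive values of Cd14 were uneven at 120.4, 22.8 and 17.00 CPM. Differences between these genes were not tested.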
